A study of Mus musculus with 6 samples.

Results

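The genes described here were 10 components of the Notch pathway, taken by symbol from a table of 22081 genes: the receptors Notch1, Notch2 and Notch3, the ligands Dll1 and Jag1, the nuclear components Rbpj and Maml1, and the target genes Hes1, Hey1 and Heyl. Their transcripts were measured by RNA-seq in freshly sorted muscle stem cells (MuSCs, the cells from which skeletal muscle regenerates), in 3 control and 3 Taf4asKO libraries. Taf4asKO mice carried floxed Taf4a alleles and a tamoxifen-inducible Cre recombinase expressed from Pax7, so that tamoxifen removes a pair of Taf4a exons in Pax7-expressing cells. TAF4A is a subunit of the general transcription factor TFIID, and the annotation used here calls its gene Taf4. Sample titles call the groups MuSC_WT and MuSC_Taf4a-KO, here named control and Taf4asKO. The study describes its controls in general as littermates that also carried the floxed alleles, with or without the Cre allele. Whether that holds for the WT libraries, and whether their mice received tamoxifen, is not clearly stated in the sources used here. Mice were adults of both sexes on a C57BL/6 background, and either genotype could carry a green fluorescent Pax7 reporter. Cells were sorted as negative for SCA1, CD45 and CD31 and positive for integrin alpha 7 or the reporter, a gate that by the study's own account enriches MuSCs but leaves a sizeable share of other cells. The sample labels do not say which animals a library came from, so the p-values below measure the spread between libraries, which may be partly technical.

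Notch receptors are activated by ligands on neighbouring cells. Proteases of the ADAM family and gamma-secretase then cut the receptor and release its intracellular domain, which enters the nucleus, binds the DNA-binding protein RBPJ and recruits a Mastermind-like co-activator such as MAML1. The complex induces repressors of the HES and HEY families. In skeletal muscle this pathway is known for keeping adult MuSCs quiescent: loss of RBPJ lets them leave quiescence, and HEY1 and HEYL are needed for their maintenance.

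In brief, the 3 target genes were higher in the Taf4asKO libraries, the 2 ligands moved in opposite directions, and neither the receptors nor the nuclear components passed the test. Hes1 was 1.9-fold, Hey1 1.72-fold and Heyl 1.47-fold of control by group means, Jag1 was 1.58-fold, and Dll1 was 0.437 of control. A gene passed when its Benjamini-Hochberg adjusted p, from limma over 18562 genes, was under 0.05 and its group means on the log2(value + 1) scale differed by at least 1.3-fold. Of the 10 pathway members 5 passed, 1 lower and 4 higher, against 12.6% of all genes tested, 6.71% lower and 5.93% higher. Without Taf4asKO replicate 1, 2 or 3, 3 members passed, with Heyl and Jag1 lost, against 6.72%, 5.25% and 5.14% of all genes. A fit blocked on replicate number again passed 5 members, 1 lower and 4 higher, against 18.1% of all genes, 8.98% lower and 9.09% higher. Beside these differences, the summed markers of mural cells were higher in every Taf4asKO library (15797 to 18692) than in every control library (9872 to 15593), and in bulk RNA more or fewer cells of a type and more or less RNA per cell cannot be told apart. Values are normalized counts (reads divided by a size factor for each library). Fold changes on the log2(value + 1) scale have a median over all tested genes of 0.004.

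Total normalized counts lay between 12338676 and 14551732 per library, and the reads estimated behind them between 10.588 and 17.636 megareads. Behind a member's value in 1 library stood between 358 estimated reads (Dll1) and 18402 (Notch3). No library was a copy of another, with correlations across genes of 0.9611 to 0.9843 within groups and 0.9454 to 0.9662 between them. Taf4, summed over all its exons, had 613, 534 and 478 normalized counts in control against 631, 565 and 574 in Taf4asKO (log2 fold change 0.13, SE 0.12, adjusted p = 0.524, limma). This total includes exons outside the deletion, so it does not check the deletion, and the groups rest on the sample titles throughout. All 10 MuSC markers were detected in every library, with sums of 45268 to 46027 in control and 40553 to 43990 in Taf4asKO. Of these 10, 5 were lower (Myf5, Itga7, Cdh15, Fgfr4 and Cd34) and 2 higher (Vcam1 and Sdc4), against 6.71% and 5.93% of all genes.

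The 2 ligands are the members that moved apart, and the letters upstream of their RefSeq starts (GRCm38.p6) are shown for that reason. Each stretch runs from 250 bases before the start up to the start, or up to an exon of the gene in GENCODE M21 where that comes earlier. RefSeq promoter entries were matched by symbol for 7 of the 10 members (the others being Hes1, Hey1 and Heyl), in 9 windows of 250 bases before to 50 after a start. They were searched on both strands for CCAAT, the letters bound by the factor NF-Y, and for TGGGAA, the core of the RBPJ site. Matches of the motifs can overlap each other, and none did in the members' windows. CCAAT occurred in 37.4% and TGGGAA in 25.6% of all 32851 windows of that length. Capitals mark CCAAT, here on the reverse strand as ATTGG. By that annotation the stretches lie outside exons of Dll1 and Jag1, and both of Dll1 lie in exons of A930024N18Rik on the opposite strand.
Dll1, downstream start, chr17:15375977-15376073, minus strand: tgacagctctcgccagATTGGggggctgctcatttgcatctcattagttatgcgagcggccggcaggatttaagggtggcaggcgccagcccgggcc
Dll1, upstream start, chr17:15376933-15377182, minus strand: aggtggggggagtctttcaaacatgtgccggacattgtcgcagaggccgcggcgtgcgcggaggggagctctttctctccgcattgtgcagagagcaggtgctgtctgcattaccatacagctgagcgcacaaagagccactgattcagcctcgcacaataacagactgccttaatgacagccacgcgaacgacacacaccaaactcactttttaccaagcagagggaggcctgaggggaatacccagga
Jag1, chr2:137116645-137116770, minus strand: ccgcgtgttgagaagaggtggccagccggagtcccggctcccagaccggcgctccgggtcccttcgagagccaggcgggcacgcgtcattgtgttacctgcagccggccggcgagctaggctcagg

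The window at the downstream start of Dll1 held CCAAT at position -234 from the start, in the stretch shown, and at -30, in an annotated exon of Dll1 that is not shown, whereas its other window and that of Jag1 held neither motif. Of the 7 members with a window, 2 held CCAAT (Dll1 and Maml1) and 1 held TGGGAA (Rbpj). Such a match describes the letters alone. Rbpj, the gene for the factor that reads TGGGAA, had that core on the forward strand at position -149 and on the reverse strand at -65. The stretch before its exon, which holds the forward match in capitals, is intronic to longer annotated transcripts of Rbpj.
Rbpj, chr5:53590096-53590213, plus strand: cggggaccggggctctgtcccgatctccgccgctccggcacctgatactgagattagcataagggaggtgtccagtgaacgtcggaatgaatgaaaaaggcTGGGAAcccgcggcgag

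None of the receptors passed, although all 3 had lower group means in Taf4asKO. Notch3 (ENSMUSG00000038146, chr17:32120820-32166880, minus strand), positions here and below as in the deposited table on mm10, is a receptor that mural cells of blood vessels express too. It had 15838, 13174 and 17451 normalized counts in control against 10737, 12673 and 13457 in Taf4asKO (15488 ± 2160 against 12289 ± 1400, SD, n = 3 each). The groups overlapped, since Taf4asKO replicate 3 lay above control replicate 2. The log2 fold change of Notch3 was -0.33 (SE 0.13, 95% interval -0.62 to -0.04, adjusted p = 0.131). Without control replicate 2 it was -0.44 with an adjusted p of 0.035, the 1 fit of 15 that passed.

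Notch2 (ENSMUSG00000027878, chr3:98013538-98150361, plus strand) is a receptor known, together with Notch1, to maintain quiescence in MuSCs. It had 9320, 8528 and 9221 normalized counts in control against 8157, 8241 and 8330 in Taf4asKO (9023 ± 432 against 8243 ± 86.5). Every Taf4asKO library lay below every control library. The difference was small on the log2 scale, at -0.13 (SE 0.09, 95% interval -0.33 to 0.07, adjusted p = 0.376). For Notch1 (ENSMUSG00000026923, chr2:26457903-26503822, minus strand), the other receptor of that pair, the libraries had 6656, 5708 and 5008 normalized counts in control against 5215, 4373 and 4899 in Taf4asKO (5791 ± 827 against 4829 ± 425). Its groups overlapped, with Taf4asKO replicate 1 above control replicate 3. The log2 fold change of Notch1 was -0.26 (SE 0.12, 95% interval -0.53 to 0.01, adjusted p = 0.195), and it ran from -0.15 without control replicate 1 to -0.36 without control replicate 3.

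Some receptor exons overlap other genes: 7.5% of the exon length of Notch1 lies opposite 0610009E02Rik and 6.03% of Notch3 opposite Gm17276, while 5.02% of Notch2 is shared with Gm42820 on the same strand. None of the 3 receptors passed the limma test, and 0 passed limma-voom on estimated reads, while 1 of them, Notch3, had an unadjusted p under 0.05, as did 28.8% of all genes tested. The make-up of the receptor pool could be compared per length, as each receptor's value per kilobase of exon in percent of the sum over the 3 receptors. Notch3 made up 60.5% ± 3.29 in control and 57.8% ± 3.15 in Taf4asKO (SD, n = 3), Notch2 26.6% ± 1.34 and 29.2% ± 1.56, and Notch1 13.0% ± 2.17 and 13.0% ± 1.74. The differences were -2.66, 2.63 and 0.0294 percentage points, with exact two-sided permutation p of 0.5, 0.2 and 1.0 over the 6 libraries. The smallest p that 3 against 3 libraries allow is 0.1. The summed receptor level per kilobase was 3290, 2821 and 3364 in control and 2450, 2638 and 2780 in Taf4asKO (3158 ± 295 against 2623 ± 166), a description in which every Taf4asKO library lay below every control library.

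**Figure D1:**
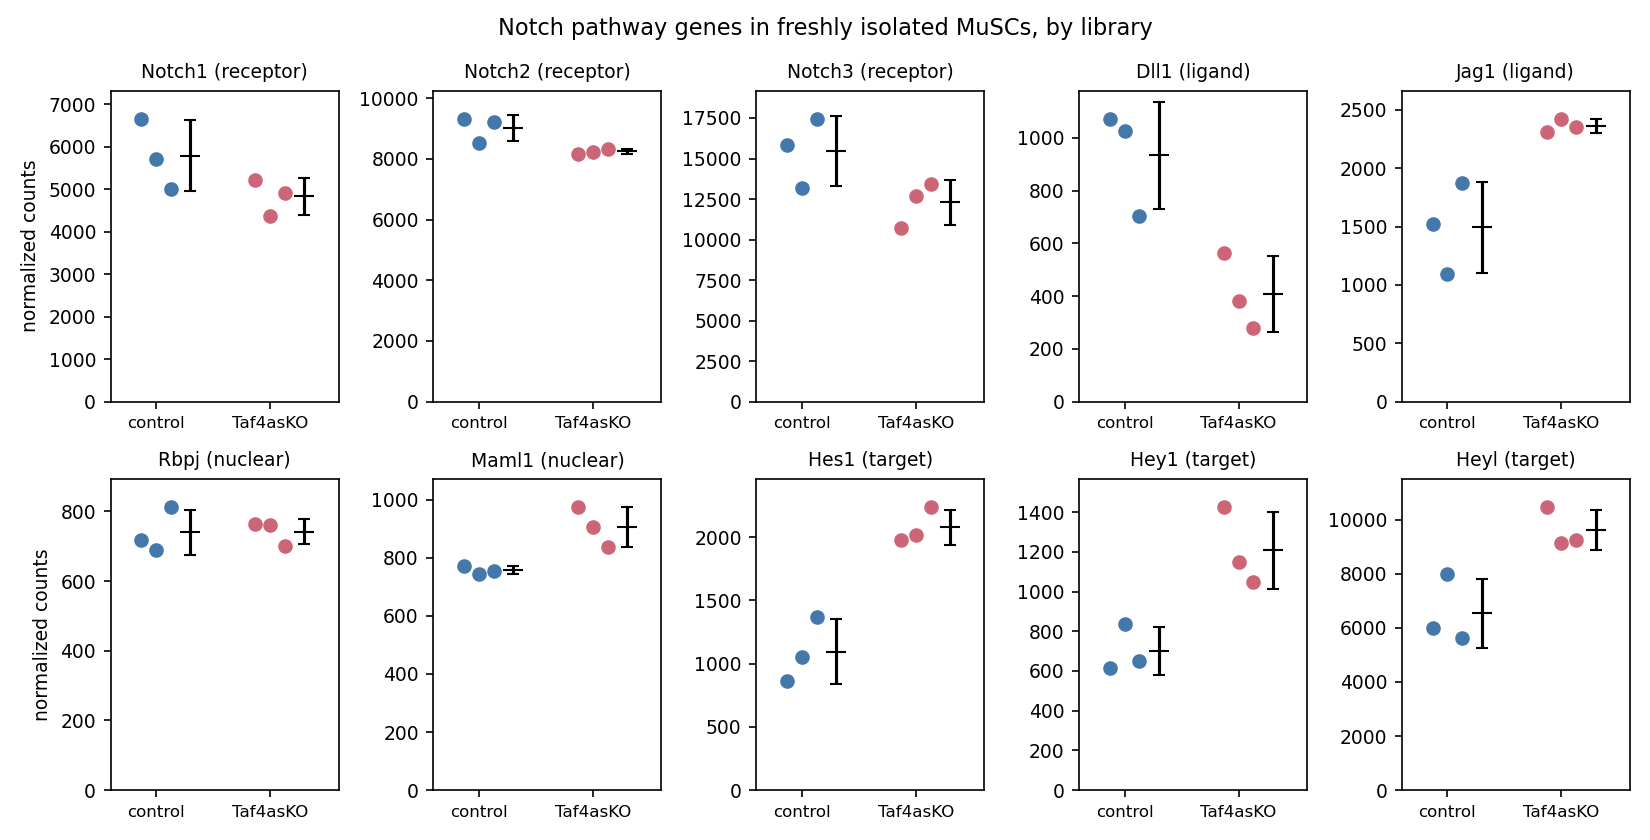
Normalized counts (y axis, from 0, with its own scale in each panel) of the 10 pathway members by library, with points for control (blue) and Taf4asKO (red) and black bars for each group's mean ± SD (n = 3). Notch1 and Notch3 overlap between the groups, Rbpj overlaps, and Hes1, Hey1, Heyl and Jag1 sit above and Dll1 below control in every library.

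Dll1 (ENSMUSG00000014773, chr17:15367354-15375976, minus strand), a Delta-family ligand, showed the largest fall among the members. It had 1072, 1025 and 702 normalized counts in control against 565, 380 and 278 in Taf4asKO (933 ± 201 against 407.7 ± 145, SD, n = 3). The highest Taf4asKO library lay below the lowest control library. The log2 fold change of Dll1 was -1.23 (SE 0.24, 95% interval -1.77 to -0.69, adjusted p = 0.00993). It passed in all 15 alternative fits, and its log2 fold change stayed between -1.49 and -0.98 when single libraries were left out. Of the exon length of Dll1, 20.55% lies opposite exons of A930024N18Rik, which averaged 25.5 normalized counts. Reads that overlapped several genes were left out of the counts. Use of the strand in counting was not given in the sources used here, so whether reads of the shared stretch were dropped or assigned by strand is not known.

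Jag1 (ENSMUSG00000027276, chr2:137081456-137116644, minus strand) is a Serrate-type ligand that vascular cells express too. It had 1523, 1091 and 1870 normalized counts in control against 2309, 2424 and 2355 in Taf4asKO (1495 ± 390 against 2363 ± 57.9). All Taf4asKO libraries lay above all control libraries, and they were close together while control varied. Jag1 had a log2 fold change of 0.69 (SE 0.17, 95% interval 0.33 to 1.06, adjusted p = 0.0229). It passed in 11 of 15 alternative fits, and the call was lost with scaling to the total count (adjusted p = 0.0536) and without Taf4asKO replicate 1, 2 or 3 (adjusted p = 0.071, 0.0933 and 0.0811). Without control replicate 1, the library with the lowest sum of mural markers, it was 0.73 (adjusted p = 0.0397).

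Per kilobase of exon, the ratio of the Jag1 level to the Dll1 level was 1.03, 0.771 and 1.93 in control and 2.96, 4.62 and 6.13 in Taf4asKO. These ranges do not overlap, a description chosen after the values were seen that restates the opposite directions of the 2 ligands. Per coding length the ratio was 0.842, 0.631 and 1.58 in control and 2.42, 3.78 and 5.02 in Taf4asKO, so that Jag1 lay above Dll1 in all 3 Taf4asKO libraries on either length.

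Rbpj (ENSMUSG00000039191, chr5:53555834-53657362, plus strand) encodes the DNA-binding protein of the pathway. It had 719, 689 and 812 normalized counts in control against 764, 762 and 701 in Taf4asKO (740.0 ± 64.1 against 742.3 ± 35.8, SD, n = 3). The libraries of both groups intermingled. Rbpj had a log2 fold change of 0.007 (SE 0.11, 95% interval -0.23 to 0.24, adjusted p = 0.977). Maml1 (ENSMUSG00000050567, chr11:50255634-50292311, minus strand), the co-activator, had 772, 746 and 753 normalized counts in control against 974, 906 and 838 in Taf4asKO (757.0 ± 13.5 against 906.0 ± 68). Its groups did not overlap, and its log2 fold change was 0.26 (SE 0.10, 95% interval 0.04 to 0.48, adjusted p = 0.119). Of the exon length of Maml1, 2.44% lies opposite Gm26542. By limma 0 of the 2 nuclear components passed, 0 passed by limma-voom, and 1, Maml1, had an unadjusted p under 0.05 (28.8% of all genes).

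Hes1 (ENSMUSG00000022528, chr16:30065340-30067796, plus strand) is a repressor of the HES family that responds directly to Notch. It had 860, 1055 and 1370 normalized counts in control against 1980, 2015 and 2235 in Taf4asKO (1095 ± 257 against 2077 ± 138, SD, n = 3). The lowest Taf4asKO library was above the highest control library. Hes1 had a log2 fold change of 0.95 (SE 0.15, 95% interval 0.61 to 1.29, adjusted p = 0.0039). Hey1 (ENSMUSG00000040289, chr3:8663359-8667256, minus strand), a HEY-family repressor, had 617, 837 and 649 normalized counts in control against 1424, 1150 and 1047 in Taf4asKO (701 ± 119 against 1207 ± 195). No libraries overlapped, and its log2 fold change was 0.78 (SE 0.15, 95% interval 0.45 to 1.12, adjusted p = 0.00831). Both passed in all 15 alternative fits.

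Heyl (ENSMUSG00000032744, chr4:123233556-123249875, plus strand) is the HEY-family member that acts with HEY1 in MuSC maintenance. It had 6002, 7976 and 5617 normalized counts in control against 10452, 9132 and 9235 in Taf4asKO (6532 ± 1266 against 9606 ± 734). Every Taf4asKO library lay above every control library, although control replicate 2 came close to them. The log2 fold change of Heyl was 0.57 (SE 0.14, 95% interval 0.27 to 0.87, adjusted p = 0.0224). It passed in 10 of 15 alternative fits and in 1 of the 6 fits without single libraries, being lost without control replicate 1 or 3 (adjusted p = 0.0628 and 0.0638) and without Taf4asKO replicate 1, 2 or 3 (adjusted p = 0.0858, 0.0740 and 0.0717).

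Over the 10 members, 7 had groups without overlap, 2 lower and 5 higher, against 33.0% of all genes tested, 16.4% lower and 16.6% higher. Exact permutation p over the 6 libraries was 0.1 for each of those 7, the smallest possible, and 0.2, 0.2 and 1.0 for Notch1, Notch3 and Rbpj. The median log2 fold change over the members was 0.13.

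**Figure D2:**
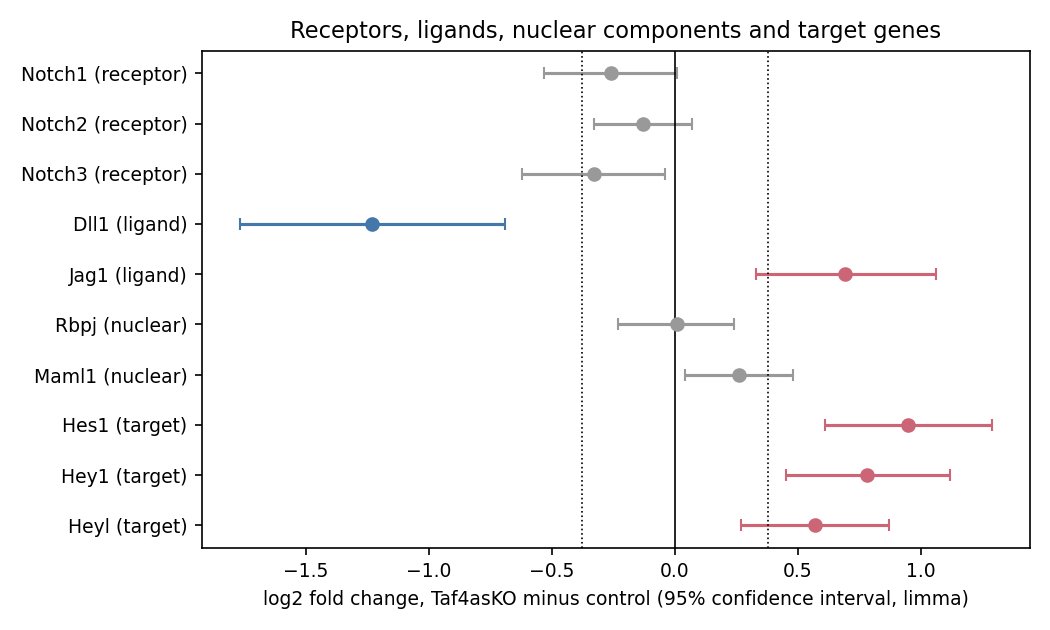
Log2 fold change of Taf4asKO over control (x axis, log2(value + 1) scale) for each pathway member, grouped by role, with bars for the 95% interval from limma. Blue (lower) and red (higher) points passed the test, and grey points did not: Dll1 passed at -1.23, and Heyl, Jag1, Hey1 and Hes1 between 0.57 and 0.95.

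On a scale per kilobase of exon, Notch3 was the highest member in control (1915 ± 267), followed by Heyl (1277 ± 248), Notch2 (837 ± 40), Hes1 (538 ± 126) and Notch1 (407 ± 58.1). Jag1 (257 ± 67), Dll1 (221 ± 47.7), Hey1 (215 ± 36.4), Maml1 (137 ± 2.43) and Rbpj (58.0 ± 5.03) followed. Hes1 and Notch1, Jag1 and Dll1, and Dll1 and Hey1 overlapped in their libraries. In Taf4asKO, Heyl (1879 ± 144) came before Notch3 (1519 ± 173), Hes1 (1019 ± 67.9) before Notch2 (764 ± 8.02), and Dll1 (96.6 ± 34.5) after Maml1 (164 ± 12.3). There Jag1 and Hey1, and Hey1 and Notch1, overlapped. This order depends on the length used. Per kilobase of coding length, an alternative added after the values were seen, Heyl was already above Notch3 in control (6679 ± 1294 against 2216 ± 309), Rbpj (426 ± 36.9) lay above Maml1 (247 ± 4.4), and Dll1 and Jag1 (431 ± 93 and 409 ± 107) overlapped. In Taf4asKO, Heyl (9822 ± 751) and Hes1 (2455 ± 163) were the highest and Dll1 (188 ± 67.2) the lowest.

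Ratios of a target to a receptor within each library, per kilobase of exon, were chosen after the values were seen. Another length multiplies a ratio by the same factor in every library and so leaves the groups apart. Heyl was 0.6, 0.958 and 0.509 of Notch3 in control and 1.54, 1.14 and 1.09 in Taf4asKO. Hes1 was 0.488, 0.655 and 0.786 of Notch2 in control and 1.28, 1.29 and 1.42 in Taf4asKO. Hey1 was 0.404, 0.639 and 0.565 of Notch1 in control and 1.19, 1.15 and 0.932 in Taf4asKO. None of the 3 ratios overlapped between the groups. Since each sets a target that was higher in every Taf4asKO library over a receptor with a lower mean, they restate the members' values. Exact permutation p was 0.1 for each, the smallest possible, and is no separate support.

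Markers of several other cell types moved with the groups and stand beside these results, because Notch3, Heyl, Hey1 and Jag1 are also transcribed in vessel walls. The sum of 9 markers of mural cells (pericytes and vascular smooth muscle) was 9872, 15593 and 13223 normalized counts in control against 15797, 18692 and 16852 in Taf4asKO. Of the 9, 2 were called higher (Rgs5, log2 fold change 1.06, adjusted p = 0.0185, and Myh11, 0.69, 0.0388), against 5.93% of all genes. With the replicate block 6 were called higher, against 9.09% of all genes, and none of the 9 was at 0 in any library. The markers did not all move one way. Tagln was 33 to 44 normalized counts in control and 20 to 25 in Taf4asKO (log2 fold change -0.75, adjusted p = 0.1), and Acta2 and Higd1b had log2 fold changes of -0.31 and -0.11 (adjusted p = 0.365 and 0.915). Notch3, whose groups overlapped, had 13174 to 17451 normalized counts in control and 10737 to 13457 in Taf4asKO. Its relation to the mural sum was not tested.

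Sums of Schwann cell markers were 1304 to 3176 in control and 4050 to 4985 in Taf4asKO, and 5 of 6 were called higher, against 5.93% of all genes. Those of endothelial markers were 952 to 1441 and 1567 to 2089. Of the 9 markers, 0 were called by limma or limma-voom and 7 had an unadjusted p under 0.05 (28.8% of all genes). With the block 4 were called higher, against 9.09% of all genes. Immune markers, of which 3 were analysed, summed to 422 to 538 and 666 to 924. By limma or limma-voom 0 were called, and 1 had an unadjusted p under 0.05 (28.8% of all genes). With the block 1 was called higher, against 9.09% of all genes. Of these 3, Lyz2 alone had the higher mean in Taf4asKO (257 ± 142 against 559 ± 147 normalized counts), while Csf1r and Cd68 had log2 fold changes of -0.56 and -0.03 (adjusted p = 0.324 and 0.959). Myofiber markers summed to 1193 to 3772 and 2141 to 2712, with 0 of 6 called by limma or limma-voom and 0 with an unadjusted p under 0.05. Fibro-adipogenic markers summed to 53434 to 79326 in control and 33341 to 55371 in Taf4asKO, and these ranges overlapped. Of its 7 genes Col3a1 was called, lower, against 6.71% of all genes called lower. With the block 5 were called, 1 lower and 4 higher, against 8.98% and 9.09% of all genes. The median log2 fold change over these 7 genes was 0.77, opposite in sign to the difference between the mean sums, of which Col3a1 made up 46225 to 47700 in control and 13082 to 17573 in Taf4asKO. No marker that was analysed was at 0, and Ptprc, Adgre1 and Itgam, defining markers of immune cells, were not analysed here.

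Control replicate 2 and Taf4asKO replicate 1 had like mural sums, 15593 and 15797. Between these 2 libraries Hes1 was 1055 and 1980, Hey1 837 and 1424, Heyl 7976 and 10452, Jag1 1091 and 2309, and Dll1 1025 and 565 normalized counts. The pair is 1 library a group, was chosen after the values were seen, and still differed in its Schwann sums (3176 and 4050), so it is a description with no test. Without control replicate 1, whose mural and Schwann sums were the lowest, 4 members passed, 1 lower and 3 higher, with Heyl lost, against 9.24% of all genes, 5.17% lower and 4.07% higher. The part of these cell types in the results was not tested.

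**Figure D3:**
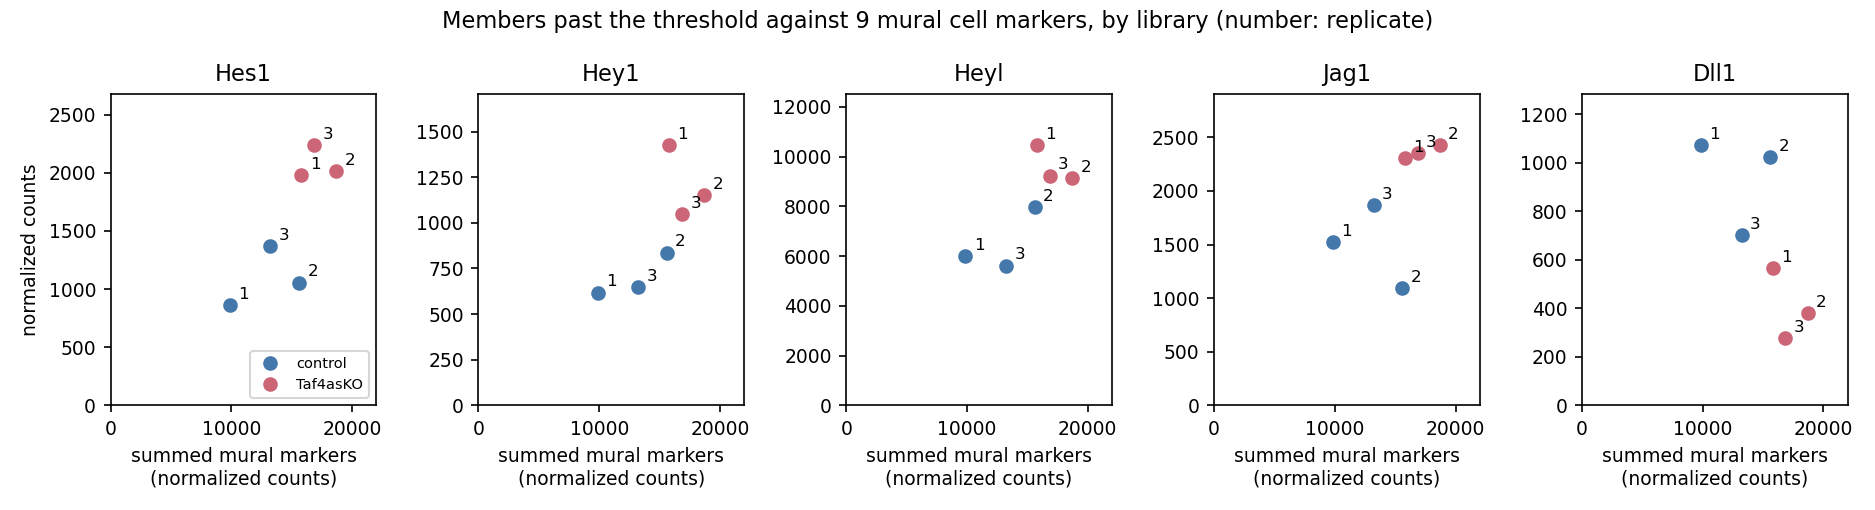
Normalized counts of pathway members (y axes, from 0) against the summed mural markers of the same library (x axis, normalized counts), with 1 point per library coloured by group. Control replicate 2 at 15593 and Taf4asKO replicate 1 at 15797 on the x axis differ in Hes1 (1055 and 1980) and Heyl (7976 and 10452).

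The pathway beyond the 10 members was read from 8 lists with 71 genes tested (Dner, Hes2, Hes3 and Hes5 of these lists were not analysed here). Of these 71 genes 10 passed, 14.1%, close to the 12.6% of all genes, with 4 lower and 6 higher. With the replicate block 12 passed, 5 lower and 7 higher, against 18.1% of all genes, 8.98% lower and 9.09% higher. The additions were Maml2 (higher, adjusted p = 0.0427) and Kat2a (lower, adjusted p = 0.024), both nuclear cofactors. Of the 10, Neurl1a and Id3 passed in all 6 fits without single libraries.

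Among other receptors and ligands 1 of 6 passed. Jag2, the ligand related to Jag1, fell from 257.3 ± 44.4 to 148.7 ± 14.2 normalized counts (log2 fold change -0.78, adjusted p = 0.0125), the opposite direction to Jag1. It was lost without Taf4asKO replicate 2 or 3 (adjusted p = 0.0665 and 0.0647).

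Of 10 genes that process the receptor, 1 passed. Adam17, a metalloprotease that can shed the receptor's outer part, had 611, 778 and 606 normalized counts in control against 980, 992 and 1075 in Taf4asKO (log2 fold change 0.62, adjusted p = 0.0093). It was lost without Taf4asKO replicate 3 (adjusted p = 0.0562). Furin, which cleaves receptors in the secretory route and had the highest normalized counts of the list, averaged 1494 in both groups.

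Of 5 glycosylation genes, Pofut1, which adds fucose to Notch, rose from 524.7 ± 19.1 to 703.3 ± 52.3 normalized counts (log2 fold change 0.42, adjusted p = 0.0272). It was lost in 4 of 6 fits without single libraries, with adjusted p up to 0.132.

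Of 6 genes for ligand endocytosis, which pulls on the bound receptor, 2 passed and moved apart. Neurl1a, a ubiquitin ligase for ligands, had 276, 222 and 253 normalized counts in control against 131, 97 and 124 in Taf4asKO (log2 fold change -1.09, adjusted p = 0.00294). Epn2, an epsin adaptor, rose from 722.0 ± 50.7 to 976.0 ± 95.7 (log2 fold change 0.43, adjusted p = 0.0303), and was lost in 4 of 6 fits without single libraries (adjusted p up to 0.146). Mib1, which had the highest normalized counts of this list and is the main ligase for ligands in mice, averaged 2998 and 3088 (log2 fold change 0.045, adjusted p = 0.806).

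None of 10 genes for receptor trafficking and feedback passed by limma or limma-voom, with 2 at an unadjusted p under 0.05 against 28.8% of all genes. The gene with the highest normalized counts, Dtx4, a Deltex-family ligase, had 11162 ± 661 and 9315 ± 413 normalized counts (log2 fold change -0.26, adjusted p = 0.104).

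Of 7 other genes of the HES, HEY and ID groups 3 passed, all higher, against 5.93% of all genes called higher. Id3, an inhibitor of myogenic and other helix-loop-helix factors that responds mainly to BMP, had 1826, 1714 and 2312 normalized counts in control against 4404, 3247 and 3184 in Taf4asKO (log2 fold change 0.88, adjusted p = 0.00496). Id4 rose from 128.0 ± 24.8 to 228.7 ± 21.8 (0.84, adjusted p = 0.0113), and was lost without Taf4asKO replicate 1 or 2 (adjusted p = 0.058 and 0.0618). Hey2, a low HEY-family gene, rose from 45.33 ± 13.7 to 96.67 ± 28 (1.08, adjusted p = 0.0304), and passed in 1 of 6 fits without single libraries, with adjusted p up to 0.147.

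Of 9 genes tied to Notch in MuSCs, 1 passed and it fell. Cdkn1c, an inhibitor of cyclin-dependent kinases, had 2297, 6177 and 1284 normalized counts in control against 1101, 879 and 564 in Taf4asKO (log2 fold change -1.69, adjusted p = 0.039). The control libraries spread widely, and it passed in 2 of 6 fits without single libraries (adjusted p up to 0.143). The log2 fold change of Cdkn1c was -1.07 without control replicate 2 and -2.2 without control replicate 3, and the call was lost with robust variance shrinkage (adjusted p = 0.183). Col5a3, a chain of collagen V with the highest normalized counts of this list, had 13185 ± 2249 and 10649 ± 1350 (log2 fold change -0.30, adjusted p = 0.199). Pax7 and Calcr, which the rule did not select, had log2 fold changes of -0.21 and 0.07 (adjusted p = 0.161 and 0.82).

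**Figure D4:**
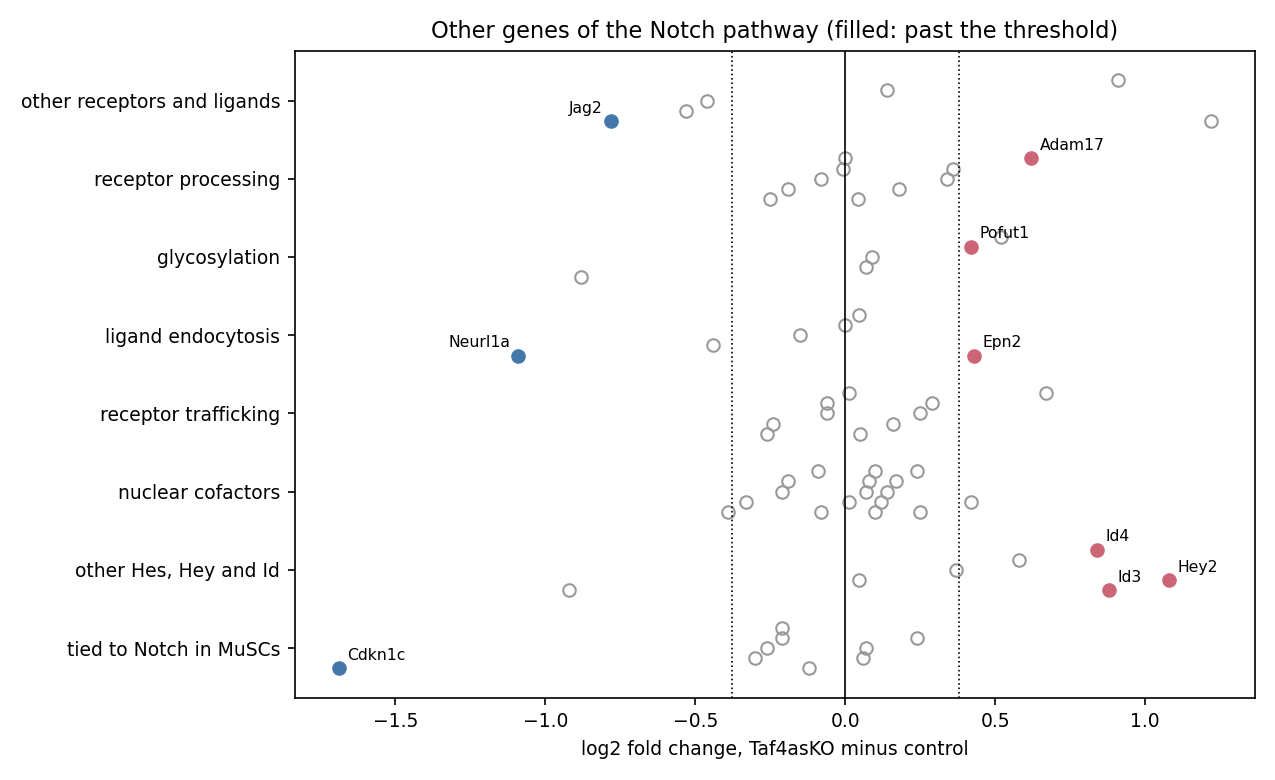
Log2 fold change of Taf4asKO over control (x axis, log2(value + 1) scale) for 70 of the 71 other pathway genes tested, 1 row for each of 8 lists, with filled labelled points for those that passed and dotted lines at the 1.3-fold limit. A gene that passed is left off the plot, and the 9 labelled genes run from Cdkn1c at -1.69 to Hey2 at 1.08.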

How the data were processed

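Total RNA of sorted MuSCs was sequenced from 3 control and 3 Taf4asKO libraries, grouped by their labels, with 0 value columns left without a sample. Per the study's methods, single-end reads were trimmed (Trimmomatic 0.39) and aligned to mm10 (STAR 2.6.0c), and the authors removed multi-mapping reads, counted reads over exons with featureCounts 1.6.0, leaving out those on several genes, and normalized with DESeq2 1.14.1. The deposited values are a score rather than raw counts: reads divided by a size factor and rounded, as inferred from the values. Rounded values do not suit a count model, so the limma test that the design gave for normalized values was used.

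Genes with a mean of at least 5 entered limma 3.58.1 (R 4.3.3, two-sided, intensity trend) on log2(value + 1), with no covariate, as the study's methods have none, and with its limits on adjusted p (0.05), fold (1.3) and mean (5). A pseudocount understates changes of low genes. Exon lengths came from GENCODE M21, which held 99.8% of the genes, and single-value tests are exact permutations. Size factors were inferred from how the whole numbers are spaced (error at most 0.001% on 4 simulated libraries). They served only limma-voom, the reads quoted and the simulated comparison below. In simulated data of this comparison (18584 genes, dispersion 0.02), 174 of 200 genes changed 2-fold were recovered, with 9 false among 183 calls. Every gene had that same dispersion, with no replicate effect, and genes of low mean were left unchanged. These rates therefore need not hold for the real libraries.

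The members and lists were chosen with earlier results of these data known. Named were all members, Taf4, each listed gene that passed, the gene of highest mean in each list, and the 3 genes most like each target gene. Genes named beside these were picked with their values in view. Some genes that the rule selects are not reported here. Replicate numbers come from the sample titles. Same-numbered libraries had deviations from their group means with correlations of 0.235, 0.126 and 0.15. Deviations cancel within a group, so the average of the other pairs, -0.085, largely follows from these and is no separate evidence. The numbers were taken as pairing on these same data alone, and a blocked fit stands beside the fit without it. The other alternatives were scaling, filters, pseudocount, limits, limma-voom and leaving out each library. Figures were drawn with matplotlib 3.10.9.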

Additional observations from a re-analysis of the deposited data

How the results depend on the processing

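Of 150 values for the 10 members over 15 alternative fits each, 135 kept direction and side of the threshold, 9 kept the direction but lost the call, 1 gained it and 5 reversed. The reversals were all of Rbpj, whose log2 fold change was -0.03 with upper-quartile scaling and ran from -0.04 to 0.08 without single libraries. The replicate block changed no member's call (5 passed, 1 lower and 4 higher) and raised the genes called higher from 1101 to 1688, of 3355 called in all. With a fold limit of 2, 1 member passed (0 higher by limma, where Hes1, the largest rise, was at 0.95), 3 other pathway genes did (2 lower, 1 higher) and 850 genes (520 lower, 330 higher). At an adjusted p of 0.01 the counts were 3 members (2 higher), 3 other pathway genes (1 lower, 2 higher) and 876 genes (545 lower, 331 higher). Without single libraries, 3 to 6 members passed (1 to 2 lower, 2 to 4 higher), 3 to 11 other pathway genes (1 to 5 lower, 2 to 6 higher) and 956 to 3096 genes (595 to 1489 lower, 350 to 1607 higher). Leaving out Taf4asKO replicate 1, 2 or 3 gave 3 members each, with Jag1 and Heyl lost, against 6.72%, 5.25% and 5.14% of all genes. Leaving out control replicate 2 gave 6 members, against 3096 of 18635 genes tested. The cause was not tested. The share of Notch1 among the receptors differed by 0.0294 percentage points, by -0.0597 with coding length, and by -1.22 to 0.703 without single libraries. Those of Notch2 and Notch3 ran from 1.8 to 3.36 and from -4.02 to -0.83. With 3 libraries a group, permutations cannot go below p = 0.1, and for Rbpj the 95% interval of -0.23 to 0.24 is the limit of what these libraries can show.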

Other observations

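Genes whose normalized counts followed those of the target genes most closely over the 6 libraries were found by Pearson's r on the log2(value + 1) scale among 10585 genes. This is a description over 6 libraries that share their groups and their marker sums. Among the closest for Hes1 were Steap2 (r = 0.9991), Il1rap (0.9986) and Auh (0.9958). Among those for Hey1 were Rab5b (0.9952) and Arpc5 (0.9924), and for Heyl Arl8b (0.9977) and Lrrc58 (0.9962).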
